A study of Mus musculus with 60 samples.

Results

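The data compare mouse duodenum organoids, kept in the vehicle DMSO, at 24 h and at 6 h of culture with it. Organoids are epithelial structures grown from intestinal crypts in Matrigel domes, here in Mouse IntestiCult medium. Both groups came from mice homozygous for CDK2-dTAG, an allele in which the cell cycle kinase CDK2 carries a degradation tag, and neither received the degrader dTAG-13. The labels give 3 samples at 24 h and 3 at 6 h, of 60 samples in 20 groups. Members were all genes with a value in this comparison of the authors' deposited table: 24905 of 41018 listed genes (60.7%). The table holds fold changes and p-values only, so values per sample, expression levels and sequencing depth were not analysed here.

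The groups set beside it were WT-dTAG organoids in DMSO, also at 24 h and at 6 h, CDK2-dTAG organoids in 250 nM dTAG-13 at the same times, and WT-cKO organoids in DMSO at 48 h and at 24 h. WT-dTAG names organoids from wild-type mice of the dTAG lines and WT-cKO those of the cKO lines, each with 3 samples a group. Every group was harvested at 1 time. Culture age, time since the medium and DMSO were given, and harvest therefore cannot be told apart. No label says that the replicates came from separate cultures or animals, and p-values therefore measure the spread between these samples, which may be technical.

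Crypt organoids hold dividing stem and progenitor cells beside secretory cells and enterocytes. The organoids draw on oxygen, and on growth factors and nutrients that a medium change renews. Epithelial cells adjust to falling amino acids through the integrated stress response, in which the transcription factor ATF4 raises genes of amino acid uptake and synthesis. They adjust to low oxygen through hypoxia-inducible factors, which raise glycolytic enzymes. Ligands of the EGF receptor, tight junction proteins and glucocorticoid-responsive genes are further known points of regulation in intestinal epithelium.

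All fold changes below are the log2 fold changes of the authors' deposited table, 24 h over 6 h, so that a positive value is higher at 24 h. A gene was called where the deposited FDR p-value was under 0.05. The 95% intervals were derived from the deposited fold change and p-value. "Well measured" describes the 9526 genes whose derived standard error had a median of at most 0.5 over the 13 comparisons in the table. The median deposited log2 fold change of well measured genes was -0.02 in CDK2-dTAG organoids, 47.8% of them were higher and 52.2% lower at 24 h, and the central 90% lay between -0.48 and 0.56.

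The tagged gene itself did not pass the test. Cdk2 had a deposited log2 fold change of 0.01 (95% interval -0.49 to 0.50) in CDK2-dTAG organoids, against -0.31 (-0.72 to 0.09) in WT-dTAG organoids. Cdk5, the kinase tagged in another line of the series, had -0.07 (-0.79 to 0.64) in CDK2-dTAG organoids and -0.03 (-0.65 to 0.59) in WT-dTAG organoids. A tag acts on the protein, so these values do not check the allele.

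Of 24905 genes tested in the authors' deposited table, 9 were called at 24 h against 6 h (0.0361%). The 8 that rose (0.0321%) were the mitochondrially encoded mt-Co1, mt-Nd5, mt-Nd6 and mt-Atp6, the noncoding RNA Rn7sk, the tight junction gene Cldn4, the stress transcription factor Atf3 and the EGF receptor ligand Areg. The 1 that fell (0.00402%) was Fkbp5, a co-chaperone of steroid receptors. Without adjustment, 677 genes had a deposited p-value under 0.05 (2.72%), of which 383 were higher (1.54%) and 294 lower (1.18%). Uniform p-values would put 1245 genes under 0.05, so the 677 are fewer than that. Among well measured genes, 5.58% had a deposited p-value under 0.05, 3.03% higher and 2.55% lower, which is near the share that uniform p-values would give.

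**Figure D1:**
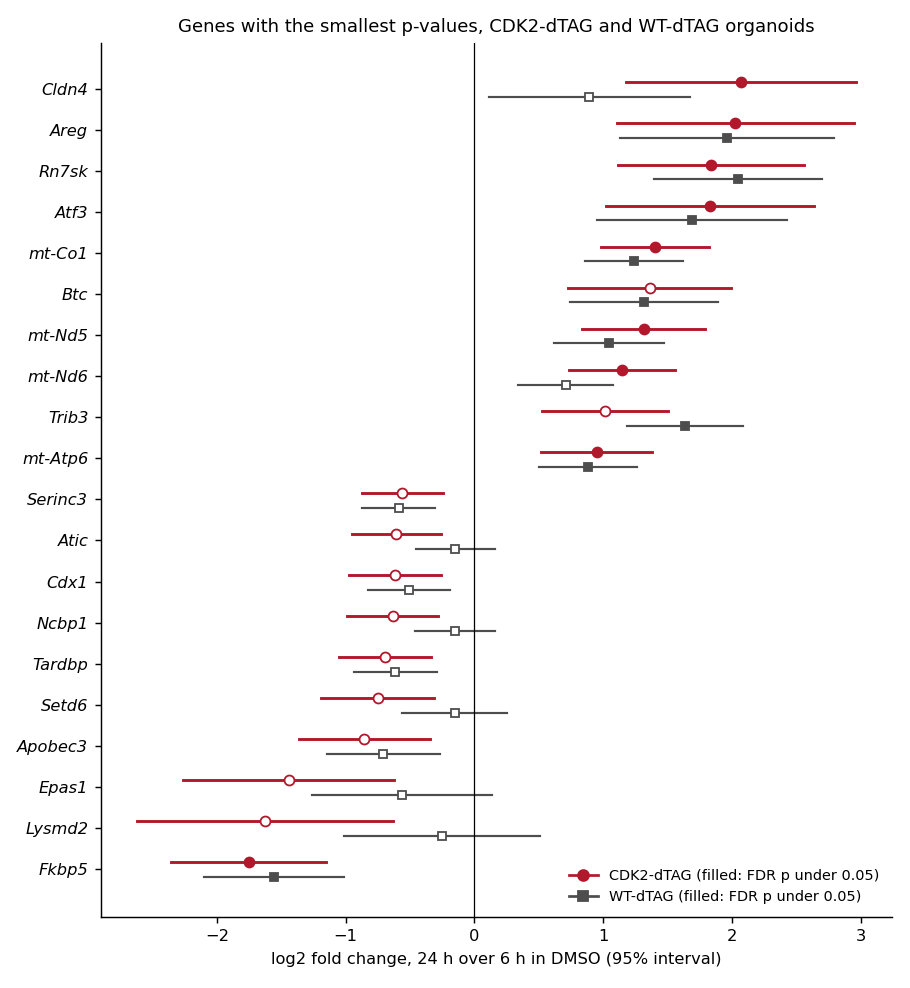
Log2 fold change of 24 h over 6 h in DMSO, with derived 95% intervals, for the 10 higher and 10 lower well measured genes with the smallest p-values in CDK2-dTAG organoids (red circles, above) and for the same genes in WT-dTAG organoids (grey squares, below). Filled symbols passed the deposited FDR p-value of 0.05: 9 genes in CDK2-dTAG, with Fkbp5 at -1.75 the only one below 0, and 9 of these 20 in WT-dTAG.

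The strongest call was a mitochondrial one. mt-Co1, which encodes the catalytic core of complex IV, rose with a deposited log2 fold change of 1.40 (0.98 to 1.82; FDR p-value 1.94e-06), a 2.64-fold difference. mt-Nd5 and mt-Nd6 encode membrane subunits of complex I. mt-Nd5 rose with a deposited log2 fold change of 1.31 (0.84 to 1.79; FDR p-value 0.000434). For mt-Nd6 the deposited value was 1.14 (0.73 to 1.56; FDR p-value 0.000381). mt-Atp6, a subunit of ATP synthase, rose by less, with a deposited value of 0.95 (0.52 to 1.38; FDR p-value 0.0438). The mitochondrial genome is packed with genes, and mt-Nd6 lies on the strand opposite its neighbours. The kit marks strand, but whether the authors' quantification used it is not given in the sources used here. Reads of mt-Nd6 may therefore include its neighbours', and near-identical nuclear copies of mitochondrial genes could take part of any member's reads.

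The list of mitochondrially encoded genes held 13 for proteins and mt-Rnr1 and mt-Rnr2 for ribosomal RNAs, without the tRNAs. All 15 were higher at 24 h in the authors' deposited table. Their log2 fold changes ran between 0.49 and 1.40 with a median of 0.73; 4 were called, against 0.0321% of all genes called higher, and 13 had a deposited p-value under 0.05, against 3.03% of well measured genes higher at that p-value. Among those not called, mt-Co2 had 0.78 (FDR p-value 0.317), mt-Nd1 0.67 (0.417) and the complex III gene mt-Cytb 0.62 (0.504). The 35 nuclear genes for subunits of the same chain showed no such shift. Their deposited log2 fold changes had a median of 0.03 and ran between -0.22 and 0.35, 21 higher and 14 lower, and none had a p-value under 0.05. The best measured of them, Atp5a1 and Atp5b of ATP synthase, had -0.05 and 0.02. The ranges of the mitochondrial and the nuclear members did not overlap in CDK2-dTAG organoids.

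**Figure D2:**
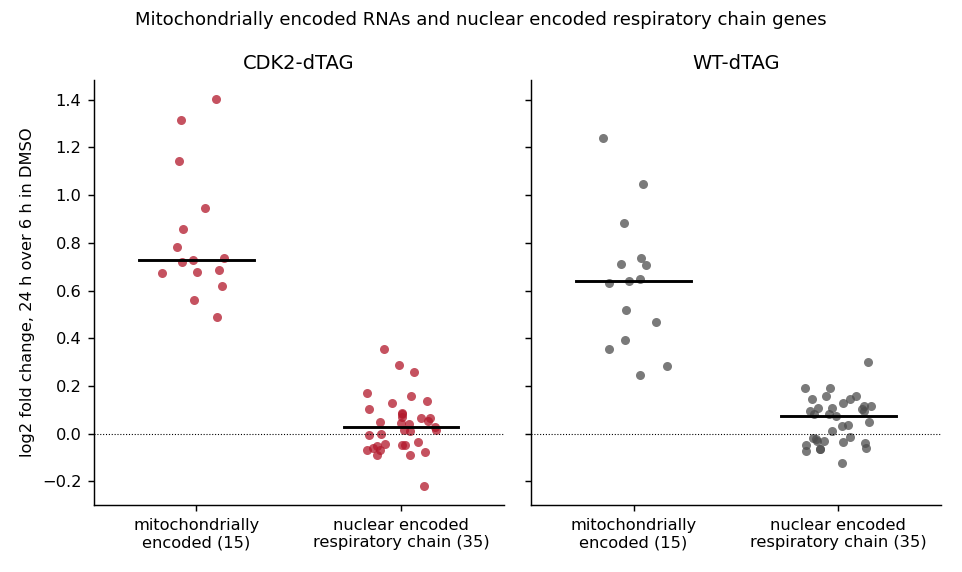
Log2 fold change of 24 h over 6 h in DMSO for 15 mitochondrially encoded genes and 35 nuclear genes of the respiratory chain, in CDK2-dTAG (left) and WT-dTAG organoids (right); each point is a gene and the bar is the median. The mitochondrial medians are 0.73 and 0.64 and the nuclear medians 0.03 and 0.07 in CDK2-dTAG and WT-dTAG organoids.

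The mitochondrial genes in WT-dTAG organoids, which share no sample with CDK2-dTAG, had a median deposited log2 fold change of 0.64, all 15 higher and 3 called. Of all genes, 0.0763% were called higher in WT-dTAG organoids. In WT-cKO organoids at 48 h against 24 h their median was -0.18; these times differ, so no comparison was made.

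Rn7sk, the small nuclear RNA that holds the elongation kinase P-TEFb inactive, rose with a deposited log2 fold change of 1.84 (1.11 to 2.56; FDR p-value 0.00341), a 3.57-fold difference. Rn7sk has many near-identical copies in the genome, and its reads are uncertain for that reason. Other RNAs that are not classical poly(A) messengers were then grouped by GENCODE M21 class, a grouping made after their values were seen. Symbols matched for 23884 genes (95.9%). At a median standard error of up to 1, 13 of 14 snRNAs were higher at 24 h with a median deposited log2 fold change of 1.33. Of these 14, 5 had a deposited p-value under 0.05 in either direction. So had 560 of 10891 protein-coding genes at the same limit, and 2.72% of all genes without a limit. Of 60 snoRNAs, 47 were higher with a median of 0.70, and of 7 nuclear ribosomal RNA genes 7 were higher with a median of 1.34. The 14 mitochondrial tRNAs were all higher with a median of 0.84, while 10891 protein-coding genes had a median of -0.01. Few members of these RNA classes were well measured, and their medians were smaller. Among well measured genes, 2 snRNAs had a median of 0.87, 11 snoRNAs 0.33 and 2 ribosomal RNA genes 0.53. Of those 11 snoRNAs, 9 were higher and 2 lower. Rn7sk, of the class misc_RNA, was the sole gene called outside the protein-coding class.

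Long noncoding RNAs that stay in the nucleus were also looked at after their values were seen. Neat1, the scaffold of paraspeckles, had a deposited log2 fold change of 1.94 and Malat1, a speckle RNA, had 1.08; their FDR p-values were 0.317 and 0.991. At a median standard error of up to 1, 109 of 174 lincRNAs were higher with a median deposited value of 0.21. Among well measured genes, 41 of 60 lincRNAs were higher with a median of 0.17. In WT-dTAG organoids, at the limit of 1, the deposited medians were 0.55 for snRNAs, 0.95 for snoRNAs and 1.23 for ribosomal RNAs. A kit that primes on poly(A) does not target snRNAs, snoRNAs or ribosomal RNAs. Whether RNA quality or residual DNA differed between the times was not tested. That limit covers these classes, the long noncoding RNAs and the mitochondrial genes.

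Fkbp5 encodes an HSP90 co-chaperone and is a classical target of the glucocorticoid receptor. It fell by 1.75 on the log2 scale in the authors' deposited table (interval -2.35 to -1.15; FDR p-value 0.000125), to 0.296 of its 6 h level. Of 9 well measured genes on the glucocorticoid list, 5 were higher and 4 lower, with a median deposited log2 fold change of 0.08. The other members named did not pass the test: Tsc22d3, the leucine zipper protein GILZ, had -0.32 (-0.81 to 0.16), the receptor gene Nr3c1 had -0.13 (-0.54 to 0.27), Klf9 had 1.38 (-0.04 to 2.81) and Glul, glutamine synthetase, had 0.36 (-0.04 to 0.77). Fkbp5 alone was called on this list, and the mean over members weighted by precision, -0.08, had the opposite sign to the median. In WT-cKO organoids at 48 h against 24 h, Fkbp5 had a deposited log2 fold change of 0.86 with a p-value of 0.00582.

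Areg, amphiregulin, rose with a deposited log2 fold change of 2.03 (1.11 to 2.95; FDR p-value 0.0445), a 4.08-fold difference. Btc, betacellulin, another ligand of the same receptor, had 1.36 (0.73 to 1.99) and missed the threshold with a deposited FDR p-value of 0.0606. The list of EGF family ligands and EGF receptor feedback genes, Areg and Btc included, was divided: 10 of 18 well measured members were higher and 8 lower, with a median of 0.10. Feedback genes that ERK signalling is known to raise did not pass the test: the phosphatase genes Dusp4 and Dusp6 had 0.97 (0.15 to 1.80) and -0.05 (-0.52 to 0.43), Spry2 had -0.14 (-0.58 to 0.29) and Errfi1 had -0.03 (-0.51 to 0.44) in the authors' deposited table.

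The promoter of Areg is shown because this gene is a known target of CREB-type factors. The sequence is the 250 bases before the RefSeq start (GRCm38.p6, chr5:91139349-91139598, plus strand), and capitals mark the palindrome TGACGTCA, the cyclic AMP response element, which begins 61 bases before the start. The same 8 letters occur in 1.55% of 32851 RefSeq promoter windows of this length.
Areg: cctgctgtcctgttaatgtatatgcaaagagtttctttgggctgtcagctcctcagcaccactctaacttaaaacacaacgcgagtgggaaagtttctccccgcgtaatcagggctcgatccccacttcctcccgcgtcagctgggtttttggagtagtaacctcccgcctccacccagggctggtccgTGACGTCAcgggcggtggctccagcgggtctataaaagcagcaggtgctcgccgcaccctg

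Cldn4 encodes claudin-4, a tight junction protein of epithelia. It had the largest deposited log2 fold change of the 9 called genes, 2.07 (1.18 to 2.97; FDR p-value 0.0225), a 4.21-fold difference. The claudin family was looked at after this value was seen. Of 7 well measured claudin genes, Cldn4 included, 6 were higher and 1 lower, with a median deposited value of 0.08. Cldn23 had 1.65 and Cldn3 0.47, with unadjusted p-values of 0.00189 and 0.00746, while Cldn2 had 0.08 and Cldn7 0.06. The values thus ranged from near 0 in Cldn2, Cldn7, Cldn12 and Cldn15 to well above it in Cldn4 and Cldn23.

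Cldn4 also carries AP-1 letters, TGACTCA, at 2 places in its promoter window (GRCm38.p6, chr5:134946935-134947184, minus strand), beginning 240 and 158 bases before the start and marked in capitals. On either strand these letters occur in 4.46% of the 32851 windows.
Cldn4: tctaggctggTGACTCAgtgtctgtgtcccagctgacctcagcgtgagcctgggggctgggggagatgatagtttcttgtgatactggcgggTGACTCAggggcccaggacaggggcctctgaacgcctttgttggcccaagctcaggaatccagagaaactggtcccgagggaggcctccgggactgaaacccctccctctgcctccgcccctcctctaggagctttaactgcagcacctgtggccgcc

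Atf3 encodes a bZIP factor induced by many stresses. It rose with a deposited log2 fold change of 1.83 (1.02 to 2.64; FDR p-value 0.0326), a 3.55-fold difference. On the list of immediate early and AP-1 genes, 15 of 20 well measured members were higher and 5 lower, with a median deposited value of 0.27, and Atf3 was the sole member with a p-value under 0.05. Jun had 0.51 (-0.003 to 1.02), Klf6 0.44 (-0.05 to 0.93), Jund 0.30 (-0.09 to 0.70) and Btg2 -0.17 (-0.56 to 0.21); none passed the test.

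Genes of the integrated stress response and of amino acid supply were mostly higher at 24 h, but none was called. Of 27 well measured members in the authors' deposited table, 23 were higher and 4 lower, with a median log2 fold change of 0.33; 7 had a p-value under 0.05, all higher, against 3.03% of well measured genes. Trib3, a pseudokinase that is a target of ATF4, had 1.02 (0.53 to 1.51; FDR p-value 0.112). Ddit3, the factor CHOP, had 1.21 (0.58 to 1.85; FDR p-value 0.303). Stc2, a secreted glycoprotein, had 0.62 (0.12 to 1.12), and Asns, asparagine synthetase, had 0.46 (0.13 to 0.79). Atf4 itself had a deposited value of 0.28 (-0.06 to 0.62), and Shmt2, of mitochondrial serine use, had -0.18 (-0.53 to 0.17). Chaperones of the endoplasmic reticulum, a branch of stress that can share ATF4, had a deposited median near 0: 12 of 23 were higher and 11 lower, and Hspa5, the chaperone BiP, had 0.02 (-0.28 to 0.33).

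Promoters of Atf3 and Asns are shown for the letters TGATGNAA, the core of the CARE element that ATF4 and C/EBP factors bind. Capitals mark it; in Atf3 it lies on the opposite strand and so reads TTGCATCA. On either strand these letters occur in 3.45% of the 32851 windows, and in 6 of 26 windows of genes on the stress list (23.1%): those of Asns, Chac1, Gars, Pycr1, Slc7a11 and Vldlr. Trib3 and Ddit3 have no match in these 250 bases, and Atf3 is not on that list. The 4 windows printed are ones with a match to 1 of the 3 motifs searched, so they do not show how common these motifs are. The windows of Fkbp5, Btc and Trib3 hold none of the 3 motifs, and that of Ddit3 holds 1 AP-1 match. The Atf3 window is chr1:191183334-191183583 and the Asns window chr6:7693210-7693459 (GRCm38.p6, both minus strand), with matches beginning 110 and 23 bases before the start.
Atf3: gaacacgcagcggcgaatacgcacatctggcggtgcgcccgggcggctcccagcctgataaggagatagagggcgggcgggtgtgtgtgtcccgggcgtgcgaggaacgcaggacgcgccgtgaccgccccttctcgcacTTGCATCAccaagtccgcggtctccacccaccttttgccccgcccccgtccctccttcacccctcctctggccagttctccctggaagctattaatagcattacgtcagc
Asns: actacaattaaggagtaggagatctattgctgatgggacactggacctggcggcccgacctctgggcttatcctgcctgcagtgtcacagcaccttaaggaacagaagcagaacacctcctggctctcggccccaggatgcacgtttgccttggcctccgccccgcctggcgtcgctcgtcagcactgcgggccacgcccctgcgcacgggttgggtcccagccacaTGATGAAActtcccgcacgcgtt

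Glycolytic and hypoxia-inducible genes formed a further list with nearly all members above 0. Of 26 well measured members, 24 were higher and 2 lower, with a median deposited log2 fold change of 0.30; 6 had a p-value under 0.05, all higher, against 3.03% of well measured genes, and none was called. Bnip3, a mitophagy receptor raised in low oxygen, had 0.90 (0.27 to 1.54), and Pdk1, a kinase of pyruvate dehydrogenase, had 0.49 (0.14 to 0.83). The enzymes Tpi1, Pgk1, Ldha and Pgam1 had deposited values of 0.39, 0.30, 0.29 and 0.17.

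Epas1, which encodes HIF-2α, the factor known to set duodenal iron uptake, had the opposite sign, with a deposited log2 fold change of -1.44 (-2.27 to -0.62) and an FDR p-value of 0.494. Genes of iron handling had 9 of 12 well measured members higher and 3 lower, with a median of 0.21. Of 14 with a value, 4 were higher and 2 lower at a deposited p-value under 0.05, against 1.54% and 1.18% of all genes and 3.03% and 2.55% of well measured genes. The iron exporter ferroportin, Slc40a1, had 1.37 (0.57 to 2.16), the STEAP family member Steap1 had 1.00 (0.45 to 1.55) and the transferrin receptor Tfrc had 0.43 (0.11 to 0.76). Ftl1, the ferritin light chain, had 0.07 (-0.23 to 0.37).

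Genes that build ribosomes were lower at 24 h almost throughout, with none called. On the list of ribosome biogenesis and MYC targets, 29 of 30 well measured members were lower and 1 higher, with a median deposited log2 fold change of -0.25; 3 had a p-value under 0.05, against 2.55% of well measured genes lower at that p-value. Those were the helicase gene Ddx21 with -0.47 (-0.86 to -0.07), Rrp9 with -0.57 (-1.09 to -0.05) and Bop1 with -0.51 (p-value 0.0448). Npm1, Nop56 and Nop58, the best measured, lay nearer 0 at -0.11, -0.05 and -0.08 in the authors' deposited table. Cytosolic ribosomal proteins had the opposite sign at a small size: 75 of 77 were higher and 2 lower, with a median of 0.12 and none at a p-value under 0.05. Rpl21 had 0.13 and Rpl6 -0.06, and pseudogene copies make single members uncertain.

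Cytosolic and mitochondrial heat shock chaperones had 15 of 18 well measured members lower and 3 higher, with a median deposited log2 fold change of -0.15. Hsph1, an HSP110 chaperone, had -0.72 (-1.23 to -0.20), Dnaja1, a J-protein, had -0.35 (-0.65 to -0.05) and Ahsa1, an activator of HSP90, had -0.52 (p-value 0.0325). Hspa8 had -0.29 (-0.60 to 0.02). Of 22 members with a value, 4 had a p-value under 0.05, all lower, against 1.18% of all genes and 2.55% of well measured genes, and none was called.

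NRF2 targets and glutathione genes had 15 of 21 well measured members lower and 6 higher, with a deposited median of -0.17. The pentose phosphate enzymes G6pdx and Pgd had -0.43 (-0.85 to -0.01) and -0.37 (-0.69 to -0.04), whereas the autophagy adaptor Sqstm1 had 0.50 (0.16 to 0.84). Xenobiotic response genes had 10 of 19 higher and 9 lower with a median of 0.12. Cyp1a1, the classical target of the aryl hydrocarbon receptor, had a deposited value of -1.77 with a wide interval (-3.37 to -0.18).

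**Figure D3:**
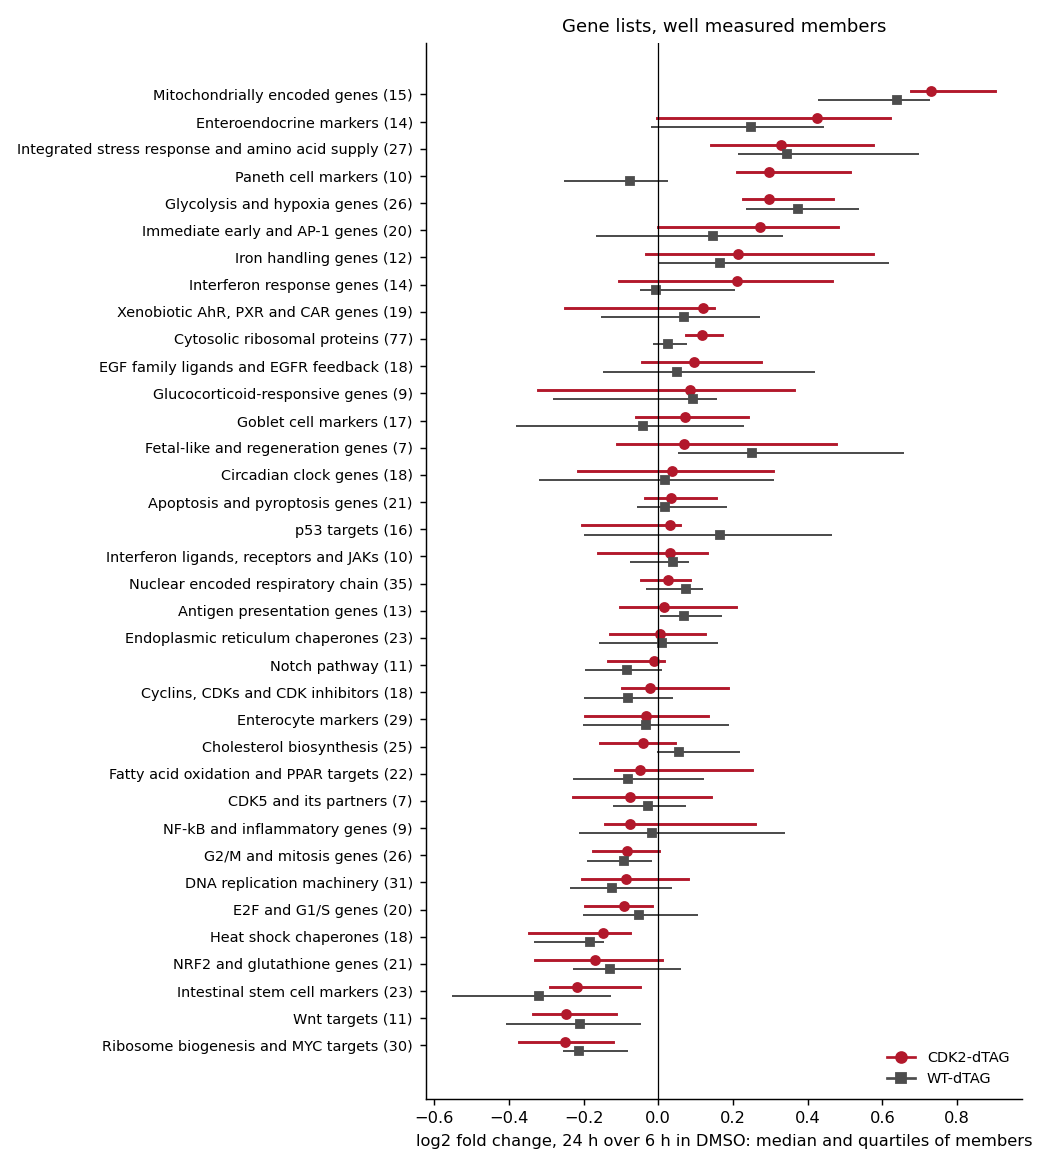
Median (symbol) and quartiles (line) of the log2 fold change of 24 h over 6 h in DMSO over the well measured members of 36 gene lists, in CDK2-dTAG (red circles, above) and WT-dTAG organoids (grey squares, below); member counts are in brackets. Mitochondrially encoded genes stand at the top with a median of 0.73 in CDK2-dTAG, and ribosome biogenesis genes at the bottom with -0.25.

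Stem cell markers were mostly lower at 24 h: 18 of 23 well measured members, with a median deposited log2 fold change of -0.22. At a p-value under 0.05, 2 were lower, against 2.55% of well measured genes, and none was called. The progenitor factor Sox9 had -0.61 (-1.06 to -0.15), the transporter gene Slc12a2 had -0.55 (-0.99 to -0.10), and the crypt receptor gene Ephb2 had -0.46 (-0.96 to 0.05). Smoc2 had -0.22 (-0.62 to 0.18). Wnt targets, which share Sox9, Ephb2 and other members with that list, had 9 of 11 lower and 2 higher with a median of -0.25. In these bulk organoids, fewer cells of a type and less RNA per cell cannot be told apart.

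Secretory markers lay mostly above 0. All 10 well measured Paneth cell markers were higher, with a median deposited log2 fold change of 0.30; 2 had a p-value under 0.05, against 3.03% of well measured genes higher at that p-value. Those were Nupr1, which is also a stress gene, with 1.54 (0.67 to 2.40), and Spink4 with 0.78 (0.32 to 1.24). Lyz1, the Paneth cell lysozyme, had 0.20 (-0.41 to 0.81). Enteroendocrine markers had 10 of 14 higher and 4 lower, with a median of 0.42: the peptide genes Tac1 with 0.90 (0.16 to 1.64), Ghrl with 0.81 (0.02 to 1.61) and Cck with 0.53 (p-value 0.0693), against -0.56 (-1.30 to 0.18) for the lineage factor Insm1. Goblet markers had 12 of 17 higher and 5 lower, with a deposited median of 0.07; the trefoil peptide Tff3 had 0.44 (0.04 to 0.83) and the mucin Muc2 had 0.69 (-0.01 to 1.40). None of these markers was called.

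Enterocyte markers were divided, with 14 of 29 well measured members higher and 15 lower and a median deposited log2 fold change of -0.03. Dpp4, a brush border peptidase, had 0.33 (-0.10 to 0.76) and the factor Hnf4a had -0.25 (-0.68 to 0.19). Of the tuft cell markers 3 were well measured, with a median of -0.02. Fetal-like and regeneration genes had 4 of 7 higher and 3 lower with a median of 0.07, with Areg the sole call. The Notch list had 3 of 11 higher and 8 lower with a deposited median of -0.01, and Hes1 had -0.005 (-0.33 to 0.32).

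Markers of cells outside the epithelium were rarely well measured: 1 of 15 listed for fibroblasts and smooth muscle, 1 of 18 for immune cells, 2 of 15 for endothelium and nerve, 1 of 18 for stomach and pancreas and 1 of 20 for spermatids. Vim had a deposited log2 fold change of 0.87 (-0.05 to 1.79), Csf1r -0.12 (-1.16 to 0.91), Pecam1 0.64 (-0.09 to 1.37), Ret 0.02 (-0.81 to 0.86), Cela1 0.19 (-0.70 to 1.08) and Odf2 -0.18 (-0.89 to 0.53). None of these lists held a member with a p-value under 0.05. The table gives no levels, so which markers were at 0 could not be read from it.

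Cell cycle lists had medians close to 0 in the authors' deposited table, with more members lower than higher on each. Lower at 24 h were 10 of 18 cyclins, CDKs and CDK inhibitors, 20 of 31 replication genes and 19 of 26 G2/M genes. Of all well measured genes, 52.2% were lower. The median log2 fold change was -0.02 over 18 cyclins, CDKs and CDK inhibitors, -0.09 over 20 E2F and G1/S genes, -0.09 over 31 replication genes and -0.08 over 26 G2/M genes. On the G1/S list, 4 members were higher and 16 lower, with E2f2 at -0.48 (-0.89 to -0.08) and Cdc25a at -0.43 (-0.81 to -0.05) the only ones with a p-value under 0.05. Cdkn1a, the inhibitor p21, had 0.51 (-0.15 to 1.17), Ccnd1 had -0.35 (-0.88 to 0.18) and Pcna had 0.17 (-0.18 to 0.52). The p53 targets had a deposited median of 0.03, with 9 of 16 higher and 7 lower, apoptosis and pyroptosis genes had 0.03, and CDK5 with its partners had -0.07.

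Interferon response genes had a median deposited log2 fold change of 0.21 over 14 well measured members of 46 with a value, 10 higher and 4 lower. Parp9 had 0.74 (0.09 to 1.39) and Irf8 -0.33 (-0.68 to 0.03). Receptors and JAKs of the pathway had a median of 0.03, antigen presentation genes 0.01 and NF-κB genes -0.08. Circadian clock genes had 10 of 18 higher and 8 lower with a deposited median of 0.04; the repressor Nr1d1 had a 2.29-fold difference with a p-value of 0.0157 and Nfil3 a log2 value of 0.66 (0.03 to 1.30), whereas Clock had -0.02 (-0.53 to 0.50). Cholesterol synthesis genes had a median of -0.04 over 25 members and fatty acid oxidation genes -0.05 over 22. No member of these lists was called.

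Several single genes stood next to the called ones without passing. Among the lower ones in the authors' deposited table were Tardbp, the RNA-binding protein TDP-43, with -0.70 (-1.06 to -0.34; FDR p-value 0.240), the nuclear cap-binding gene Ncbp1 with -0.64 (-0.99 to -0.28; 0.417), the purine synthesis enzyme Atic with -0.61 (-0.95 to -0.26; 0.494) and the intestinal homeobox factor Cdx1 with -0.62 (-0.97 to -0.26; 0.494). Serinc3 had -0.56, Setd6 -0.75, Apobec3 -0.85 and Lysmd2 -1.63. Among the higher ones, Sat1, the enzyme that starts polyamine breakdown, had 1.12 and G0s2, an inhibitor of lipolysis, had 1.73; these last were named after their values were seen, and their deposited FDR p-values were 0.224 and 0.317.

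The same comparison of times in WT-dTAG organoids shows the change in organoids without the tagged allele. In WT-dTAG, 20 genes were called (0.0803%), 19 higher (0.0763%) and 1 lower (0.00402%). Of the 9 genes called in CDK2-dTAG, 7 (77.8%) were called in WT-dTAG as well, which is 35% of the 20. All 9 had the same sign there and an unadjusted p-value under 0.05. Of all genes, 3.28% had such a p-value in WT-dTAG in either direction. The share of all genes with the same sign in both genotypes is not given here, so the sign count has no baseline. Fkbp5 had -1.75 in CDK2-dTAG organoids, against -1.56 (-2.10 to -1.01) in WT-dTAG organoids. Areg had 2.03 in CDK2-dTAG, against 1.96 (1.13 to 2.79) in WT-dTAG, and Atf3 1.83 against 1.69 (0.95 to 2.42) in the authors' deposited table. The exceptions to a call in both were mt-Nd6, with 1.14 in CDK2-dTAG and 0.71 (0.34 to 1.08) in WT-dTAG, and Cldn4, with 2.07 in CDK2-dTAG and 0.89 (0.11 to 1.67) in WT-dTAG. Trib3 and Ddit3 were called in WT-dTAG, where they had 1.64 and 1.63, and not in CDK2-dTAG, where they had 1.02 and 1.21.

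**Figure D4:**
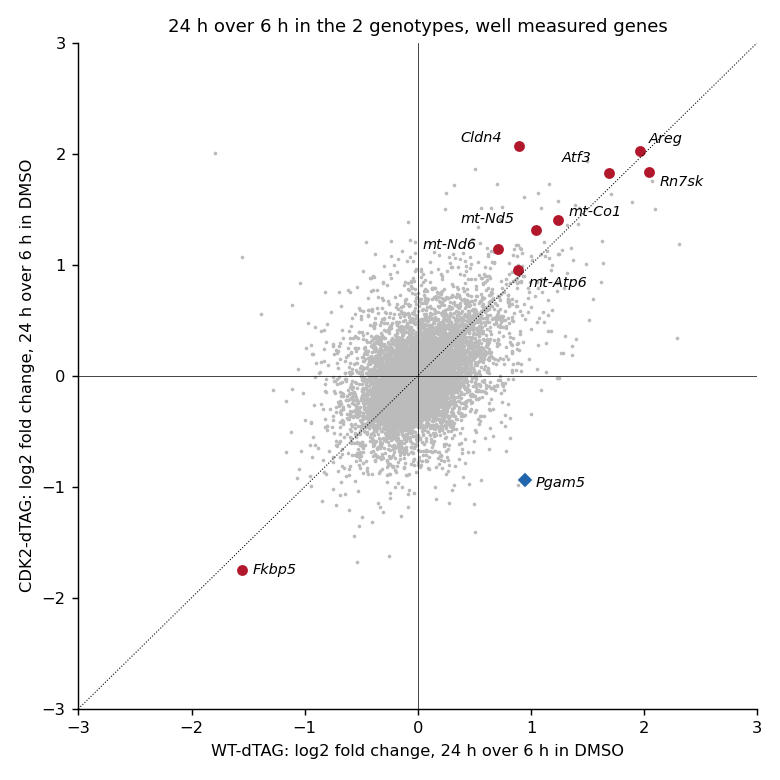
Log2 fold change of 24 h over 6 h in DMSO in CDK2-dTAG organoids (vertical axis) against WT-dTAG organoids (horizontal axis), each point 1 of 9526 well measured genes; red circles are the 9 genes called in CDK2-dTAG, the blue diamond is Pgam5 and the dotted line marks equal values. All 9 called genes have the same sign in both genotypes, while Pgam5 lies at -0.94 and 0.94.

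The difference of the time change between the genotypes was tested directly from the deposited values. At an adjusted p-value under 0.05 (Benjamini-Hochberg over 24905 genes), 0 genes differed (0%), and 245 had an unadjusted p-value under 0.05 (0.984%), 121 higher (0.486%) and 124 lower (0.498%) in CDK2-dTAG. Pgam5, a mitochondrial phosphatase, came nearest: -0.94 (-1.54 to -0.33) in CDK2-dTAG organoids, against 0.94 (0.42 to 1.47) in WT-dTAG organoids, a difference of -1.88 (-2.68 to -1.08; adjusted p-value 0.109). With the adjustment over well measured genes alone Pgam5 passed, at 0.0418. The next were the zinc transporter Slc39a13 with a difference of 2.62 (1.08 to 4.16), the lysosomal nuclease Dnase2a with -1.09 (-1.78 to -0.40), Mospd2 with 1.23 (0.42 to 2.03) and the S6 kinase gene Rps6kb2 with -1.87 (-3.16 to -0.58). Their adjusted p-values were at 1.00. For Cldn4 the difference was 1.18 (-0.01 to 2.37; unadjusted p-value 0.0510), for Trib3 -0.62 (-1.29 to 0.05) and for mt-Co1 0.16 (-0.40 to 0.73). These intervals leave room for sizeable differences, so equal responses were not shown.

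Across the 9526 well measured genes, the deposited log2 fold changes of CDK2-dTAG and WT-dTAG organoids had a Pearson r of 0.46 and a Spearman rho of 0.44. Genes are not independent replicates, and the genotypes share the platform and the layout of times but no sample. List medians in CDK2-dTAG and then WT-dTAG organoids were 0.33 and 0.35 for the integrated stress response, 0.30 and 0.37 for glycolysis and hypoxia, -0.25 and -0.21 for ribosome biogenesis and -0.22 and -0.32 for stem cell markers. Paneth markers differed in sign, with a deposited median of 0.30 (10 of 10 higher) in CDK2-dTAG and -0.08 (3 of 10 higher) in WT-dTAG. No Paneth marker had a difference between genotypes with an unadjusted p-value under 0.05. Other lists with medians of unlike sign included interferon response genes (0.21 and -0.006), goblet markers (0.07 and -0.04) and cholesterol synthesis genes (-0.04 and 0.06).

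For CDK2-dTAG organoids in 250 nM dTAG-13, the table gives dTAG-13 over DMSO at each time. Those comparisons share the DMSO samples, so values are given side by side only. A 24 h over 6 h value under dTAG-13 was formed as the dTAG-13 effect at 24 h plus the time change in DMSO minus the dTAG-13 effect at 6 h. It has no error, and it equals the change between the dTAG-13 groups only if all 3 deposited values come from 1 fit. For Fkbp5 this sum was -1.52, beside -1.75 in DMSO. For mt-Co1 it was 1.30 beside 1.40, for Areg 1.67 beside 2.03, for Rn7sk 1.64 beside 1.84 and for Atf3 1.34 beside 1.83. Cldn4 had 1.31 beside 2.07 and Trib3 1.36 beside 1.02. Epas1 and Lysmd2 had sums of 0.16 and 0.21, beside -1.44 and -1.63 in DMSO. The list medians of this sum were 0.59 for mitochondrially encoded genes, 0.35 for the integrated stress response, -0.18 for ribosome biogenesis and 0.13 for stem cell markers.

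**Figure D5:**
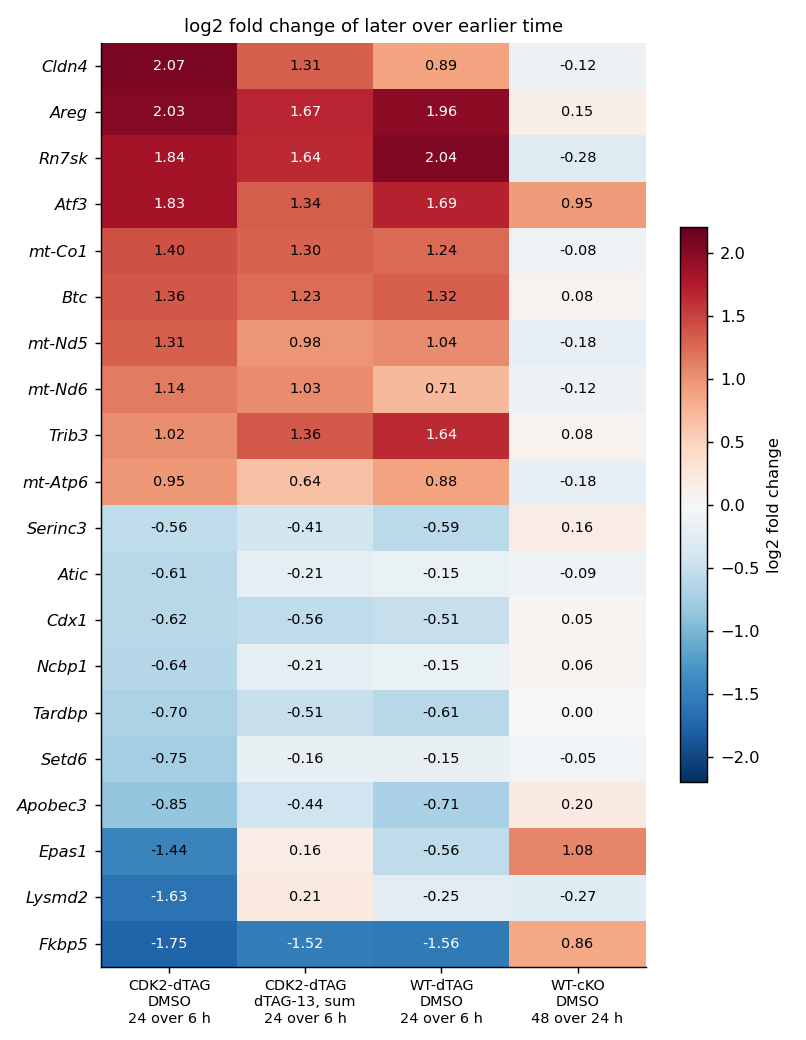
Log2 fold change of the later over the earlier time (colour and number) for the 20 genes of the plot of smallest p-values, in CDK2-dTAG organoids in DMSO, in CDK2-dTAG organoids in dTAG-13 (the sum of 3 deposited values, without error), in WT-dTAG organoids in DMSO and in WT-cKO organoids in DMSO at 48 h over 24 h. Genes were chosen on the first column; Fkbp5 is at -1.75, -1.52 and -1.56 in the first 3 columns and at 0.86 in the last.

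WT-cKO organoids in DMSO were compared at 48 h and 24 h, later times in another experiment. There 0 genes were called in the authors' deposited table (0%), and 354 had an unadjusted p-value under 0.05 (1.42%). The genes that rose in CDK2-dTAG between 6 h and 24 h had deposited log2 fold changes of -0.08 for mt-Co1, 0.15 for Areg, -0.12 for Cldn4, -0.28 for Rn7sk and 0.95 for Atf3 in WT-cKO organoids. Epas1 had 1.08 and Fkbp5 0.86 there, beside -1.44 and -1.75 in CDK2-dTAG. Genotype, experiment and times all differ between these comparisons and cannot be told apart.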

How the data were processed

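RNA was prepared with a 3′ mRNA-seq kit (QuantSeq FWD), per the labels' protocols, and quantified with Salmon, per the submitters' processing notes. The build, annotation, filters and test are nowhere given in the sources used here. Per the file headers, each comparison of the authors' deposited table has a log2 fold change, the same change as a linear fold (ratio), and a p-value given raw, as FDR and after Bonferroni. FDR values equalled a Benjamini-Hochberg adjustment of the raw ones. Depth per sample is unknown, and 0 columns of values per sample were used.

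A standard error was derived by dividing each log2 fold change by the normal quantile that its p-value implies, which assumes a Wald-type test. Differences between genotypes combined these errors as independent, with normal p-values and Benjamini-Hochberg adjustment over all genes (Python 3.11.15, SciPy 1.17.1). This computation was run on simulated data drawn under the same normal reading, so that run cannot check the Wald-type assumption. Lists are described by counts and medians over well measured members, without a test. The members, the 42 lists and the tests were chosen with earlier results of these data known.

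Genes were named by rule: Cdk2, Cdk5, all called genes, the 10 higher and 10 lower well measured genes with the smallest p-values, the 5 best measured and 3 smallest-p members of each list, and the 5 smallest p-values of the genotype difference, 2 predicted genes being passed over. Promoters come from RefSeq (GRCm38.p6), with motifs chosen after values were seen.

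Some named genes are not reported here.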

Additional observations from a re-analysis of the deposited data

How the results depend on the processing

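The count of 9 called genes became 5 with the Bonferroni p-value, 11 with adjustment over genes of median standard error up to 0.5, 10 with a limit of 1 and 677 without adjustment. Under Bonferroni, Cldn4, Atf3, mt-Atp6 and Areg no longer passed; Btc passed under both error limits (0.0232 and 0.0288) and Trib3 under the stricter (0.0428). The genotype difference had 0 genes in the main test, 1 (Pgam5) over well measured genes, 245 without adjustment and 4 where p-values were read with a t quantile on 4 degrees of freedom. Those 4 were mt-Co1, Trib3, Fkbp5 and Pgam5; by its construction that reading shrinks the errors of the smallest p-values, for mt-Co1 to 0.00266, against 0.216 with the normal quantile. Of 36 lists, 21 had a median above 0, and 21 to 23 under the alternatives. Of 144 list values under an alternative, 132 kept the sign; the 12 others belonged to lists whose median was at most 0.12 in size.

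No paired analysis was possible because the table holds comparisons and no values per sample, and leaving out a replicate was not run for the same reason. The test behind the deposited p-values is not given, so every interval rests on the normal reading.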
